A study of Mus musculus with 12 samples.

Results

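Expression of 9 genes known from other work as glucocorticoid-induced regulators was followed across 12 mouse livers: Tsc22d3, Sgk1, Dusp1, Errfi1, Klf9, Zbtb16, Cebpd, Mfsd2a and Fam107a. They were chosen by name, with earlier results of these data known. Each had 1 probe set on the array whose only annotated gene symbol was that of the gene, so the rule of taking the brightest probe set had nothing to decide. All 9 passed the filter on low values and are 9 of the 17904 genes tested. In the livers as measured, 8 of the 9 were higher under dexamethasone in every treated animal than in any vehicle animal, from 0.61 log2 units for Errfi1 to 6.13 for Fam107a, averaged over genotypes. Klf9 was the exception: its 4 groups overlapped. Among all genes tested, 4.29% had all 6 dexamethasone livers above all 6 vehicle livers.

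The livers came from male C57Bl/6 mice fed ad libitum with a 12 h day and night cycle. There were 4 groups of 3 separate animals: wild type given vehicle, wild type given dexamethasone, HDAC6 Y/- given vehicle and HDAC6 Y/- given dexamethasone. Dexamethasone, a synthetic agonist of the glucocorticoid receptor, was injected intraperitoneally at 1 mg/kg over 3 weeks. HDAC6 Y/- denotes males whose single X-linked copy of Hdac6, a mainly cytoplasmic lysine deacetylase, is knocked out. The age of the mice, how the allele was made, the number of injections, the hours between the last injection and collection, and the composition of the vehicle are not given in the sources used here.

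Glucocorticoids enter the cell and bind a receptor held by chaperones in the cytoplasm. The receptor then moves to the nucleus, where it binds response elements as a dimer or works through other factors. Many of its direct targets are themselves regulators: they bind transcription factors, remove phosphate from kinases or block growth factor receptors, and so carry the hormone's signal further. In the liver, the hormone is known above all for shaping glucose and lipid metabolism and for restraining inflammation.

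The regulatory letters upstream of 4 of these genes are shown because they differ in which known elements they hold. RefSeq promoter windows of GRCm38.p6, each from 250 bases before a transcript start to 50 after it, were matched to 7 of the 9 genes by symbol, giving 17 windows. Zbtb16 and Cebpd were not matched. Both strands were searched for the palindromic glucocorticoid response element (AGAACA, any 3 bases, TGTTCT), its single hexamer AGAACA or TGTTCT, the cAMP response element TGACGTCA, the E-box CACGTG and the TATA box TATAAA. The full element holds the hexamer on each side, so these counts overlap. Below are the 250 bases before the start, 5′ to 3′ on the strand of the gene. Capitals mark the full glucocorticoid response element in Sgk1, the 2 hexamers in Fam107a, the cAMP response element followed by the E-box in Dusp1 and the cAMP response element in Errfi1.
Sgk1: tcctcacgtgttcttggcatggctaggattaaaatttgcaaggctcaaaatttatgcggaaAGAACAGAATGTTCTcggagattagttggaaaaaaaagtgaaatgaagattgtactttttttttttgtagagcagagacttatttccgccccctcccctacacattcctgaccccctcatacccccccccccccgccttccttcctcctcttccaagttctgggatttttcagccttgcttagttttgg
Fam107a: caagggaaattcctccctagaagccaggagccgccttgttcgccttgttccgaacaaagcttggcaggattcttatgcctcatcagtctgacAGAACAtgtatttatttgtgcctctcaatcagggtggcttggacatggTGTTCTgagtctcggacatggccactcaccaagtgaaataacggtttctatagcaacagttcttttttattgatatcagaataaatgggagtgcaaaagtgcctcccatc
Dusp1: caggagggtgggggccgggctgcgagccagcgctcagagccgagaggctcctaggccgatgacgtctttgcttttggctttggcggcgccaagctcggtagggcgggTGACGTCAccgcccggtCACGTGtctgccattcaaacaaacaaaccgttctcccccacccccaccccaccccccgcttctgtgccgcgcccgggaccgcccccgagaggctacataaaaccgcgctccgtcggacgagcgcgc
Errfi1: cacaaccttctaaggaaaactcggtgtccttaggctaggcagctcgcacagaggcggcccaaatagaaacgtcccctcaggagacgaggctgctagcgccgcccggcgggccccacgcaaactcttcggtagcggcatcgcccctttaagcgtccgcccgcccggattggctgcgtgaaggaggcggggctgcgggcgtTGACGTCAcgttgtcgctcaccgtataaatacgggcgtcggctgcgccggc
The Sgk1 stretch lies at chr10:21993640-21993889 on the plus strand, before the start of 1 of several annotated Sgk1 transcripts. The Fam107a stretch lies at chr14:8309780-8310029 on the minus strand. The Dusp1 stretch lies at chr17:26508473-26508722 on the minus strand, and the Errfi1 stretch at chr4:150854820-150855069 on the plus strand.

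The full glucocorticoid response element was found in the Sgk1 window, at positions -189 to -175 counted from the start, where it reads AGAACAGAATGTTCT. It was rare at this distance: 3 of 32851 windows of all genes, 0.00913%, held it. The hexamer was common: 21.3% of all genes with windows had it, as did 3 of the 7 matched genes (Sgk1, Tsc22d3 and Fam107a). Counted by window, it was in 19.0% of all windows and in 6 of these 17. Those 6 include overlapping Fam107a windows that hold the same hexamers, and several windows of Sgk1, so they are not independent. In Fam107a the hexamers stand on both sides of a gap, at positions -158 to -153 and -110 to -105. The cAMP response element, found in 1.79% of windows, lies at -143 to -136 in Dusp1 and at -51 to -44 in Errfi1. The E-box, in 7.15% of windows, lies at -126 to -121 in Dusp1 and at -246 to -241 in Sgk1. The TATA box letters, in 13.6% of windows, were found in windows of Sgk1 and Errfi1. These are letter matches in short windows. Binding was not measured, and glucocorticoid response elements of liver genes often lie far from the start.

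The values are log2 intensities of probe sets, and 1 unit stands for a doubling. An intensity depends on the probes as well as on the transcript, so levels are set against each other only within a gene. Hdac6 itself read 5.86 to 6.43 in the 6 wild-type livers and 3.62 to 4.40 in the 6 knockout livers, which do not overlap. Of 10 hepatocyte markers, 8 were measured, and all of these lay at or above percentile 97.3 of their array. In 4 livers, transcripts of the exocrine pancreas were also present. With 12 of 14 pancreas markers measured, their summed level was 11.8 to 13.8 in vehicle wild-type replicates 1 and 2, dexamethasone wild-type replicate 3 and vehicle knockout replicate 3, against 6.81 to 7.29 in the other 8. By group it ranged from 6.98 to 13.8, from 6.85 to 11.8, from 6.90 to 12.7 and from 6.81 to 7.29, in the order in which the groups were introduced, and no marker read 0. Leaving these 4 arrays out keeps 1 wild-type vehicle liver (replicate 3), 2 wild-type dexamethasone, 2 knockout vehicle and 3 knockout dexamethasone livers. In that fit the lone liver is assumed to vary like the other groups, the residual degrees of freedom fall from 8 to 4, and the loss of a call says nothing of the pancreas transcripts themselves. Values without these arrays are given for the regulators where they move, and counts without them for each gene list.

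Dexamethasone raised 7 of the 9 genes in wild type (limma, adjusted p under the threshold of 0.05), against 819 of 17904 genes higher, 4.57%, and 6.95% lower. In the knockout it also raised 7 of 9, against 784 genes or 4.38% higher and 3.92% lower. Averaged over genotypes it raised 8 of 9, against 1306 genes or 7.29%. The genes were chosen as known targets, with earlier results of these data known, so their share is no independent support. On the log2 scale the median change of the 9 was 2.75 in wild type, where that of all genes tested was 0.0096. In the knockout these medians were 2.06 and -0.0090. Every dexamethasone animal lay above every vehicle animal of its genotype for 8 of 9 genes in wild type and for 8 of 9 in the knockout. This held for 12.5% and 11.7% of all genes. With both genotypes together, all 6 dexamethasone livers lay above all 6 vehicle livers for the same 8 genes, against 4.29% of all genes. These are whole-liver extracts, in which fewer cells of a type and less RNA per cell cannot be told apart.

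**Figure D1:**
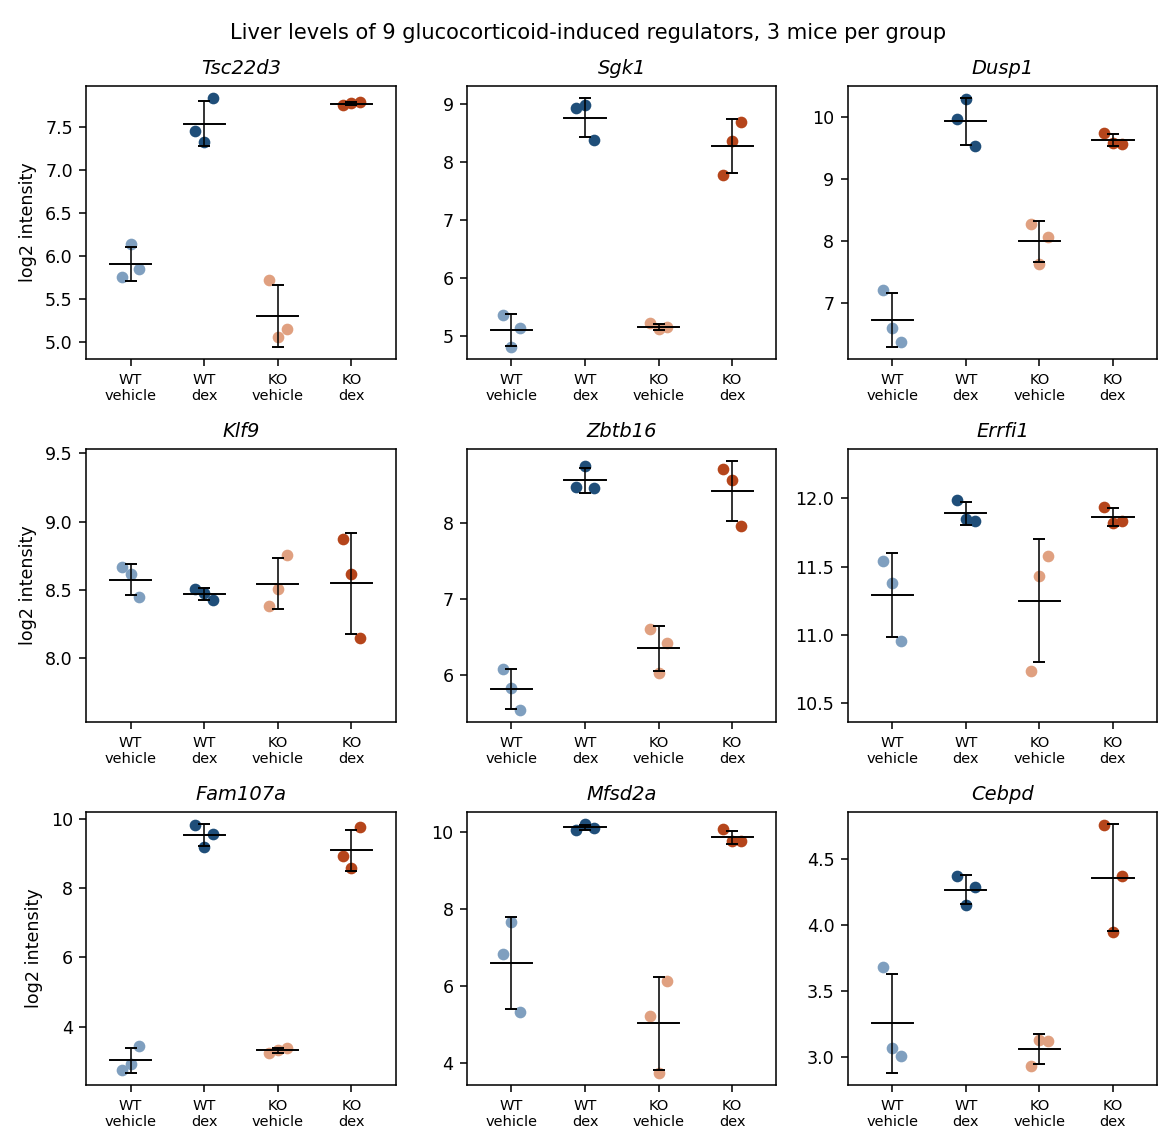
Log2 intensity (vertical axis, its own scale for each gene) in each of the 12 livers, by genotype and treatment; each point is 1 animal, each horizontal line a group mean and each whisker the SD (n = 3). Dexamethasone points lie above vehicle points in every panel but that of Klf9, and the vehicle points of Mfsd2a spread from 3.76 to 7.68.

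Among the signalling regulators, Tsc22d3 encodes GILZ, a leucine zipper protein that binds and restrains NF-kappa B and AP-1. Its log2 intensity was 5.75, 6.13 and 5.84 in the 3 wild-type vehicle livers and 5.72, 5.05 and 5.14 in the knockout vehicle livers. With dexamethasone it was 7.45, 7.33 and 7.83 in wild type and 7.75, 7.77 and 7.78 in the knockout. The treated knockout livers were nearly identical, while the vehicle knockout livers lay just below the wild-type ones without overlap. The rise was 1.63 ± 0.17 (SE, n = 3 per group; 3.09-fold, limma adjusted p = 4.88e-05) in wild type. It was 2.46 ± 0.17 (5.52-fold, limma adjusted p = 1.27e-06) in the knockout.

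Sgk1 encodes a serum- and glucocorticoid-regulated kinase of the AKT type that acts on ion channels, on the ubiquitin ligase NEDD4L and on FOXO factors. The wild-type vehicle livers read 5.35, 4.81 and 5.13, and the knockout vehicle livers 5.21, 5.11 and 5.16. These overlapped fully. Dexamethasone took Sgk1 to 8.93, 8.99 and 8.39 in wild type and to 7.77, 8.36 and 8.69 in the knockout. The 2 treated groups overlapped, with the 2 highest values in wild type and the 2 lowest in the knockout. The rise was 3.67 ± 0.22 (12.8-fold, limma adjusted p = 3.24e-07) in wild type and 3.12 ± 0.22 (8.67-fold, adjusted p = 1.25e-06) in the knockout.

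Dusp1 encodes MKP-1, a nuclear phosphatase that switches off p38 and JNK, and in part ERK. Its vehicle values were 7.21, 6.59 and 6.37 in wild type and 8.27, 7.63 and 8.07 in the knockout. All 3 knockout livers therefore lay above all 3 wild-type livers under vehicle. With dexamethasone the values were 9.97, 10.29 and 9.54 in wild type and 9.74, 9.58 and 9.57 in the knockout, which overlapped. Against the vehicle animals of the same genotype the rise was 3.21 ± 0.23 (9.25-fold, limma adjusted p = 1.64e-06) in wild type and 1.64 ± 0.23 (3.11-fold, limma adjusted p = 0.000399) in the knockout.

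Errfi1 encodes MIG6, which binds the kinase domain of the EGF receptor and shuts it down. It was bright in all livers: 11.54, 11.38 and 10.95 in wild-type vehicle, 10.74, 11.43 and 11.58 in knockout vehicle, 11.98, 11.85 and 11.83 in wild-type dexamethasone and 11.94, 11.82 and 11.84 in knockout dexamethasone. The treated livers lay close together just above the highest vehicle livers. The difference was 0.60 ± 0.19 (1.51-fold, limma adjusted p = 0.0614) in wild type and 0.61 ± 0.19 (1.53-fold, adjusted p = 0.0693) in the knockout, neither past the threshold. Averaged over genotypes Errfi1 rose by 0.61 ± 0.13 (1.52-fold, limma adjusted p = 0.00618). Which single comparison passed turned on the arrays. Without vehicle wild-type replicate 1 the wild-type difference was 0.72 (limma adjusted p = 0.0496). Without vehicle knockout replicate 1 or 3 its adjusted p by limma was 0.0123 or 0.0477, and in a fit of the wild-type groups alone 0.0395. The knockout difference passed without vehicle wild-type replicate 3 (limma adjusted p = 0.0485) and without vehicle knockout replicate 3 (0.78, adjusted p = 0.0356). It also passed without the 4 pancreas-bearing arrays (0.78, limma adjusted p = 0.0357), when the wild-type difference, resting on vehicle replicate 3 alone (10.95, the lowest of its group), was 0.96 (adjusted p = 0.0738).

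Of the 3 transcription factors, Zbtb16 encodes PLZF, a BTB and zinc finger repressor. It read 6.07, 5.82 and 5.54 in wild-type vehicle and 6.61, 6.03 and 6.42 in knockout vehicle livers. With dexamethasone it read 8.47, 8.75 and 8.46 in wild type and 8.70, 8.57 and 7.96 in the knockout. Both genotypes thus moved to one overlapping range. The rise was 2.75 ± 0.20 (6.71-fold, limma adjusted p = 2.11e-06) in wild type and 2.06 ± 0.20 (4.17-fold, limma adjusted p = 2.24e-05) in the knockout.

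Cebpd encodes C/EBP delta, a bZIP factor of the acute-phase response. Vehicle values were 3.68, 3.06 and 3.01 in wild type and 2.93, 3.13 and 3.12 in the knockout, near the middle of the array's intensities. Dexamethasone values were 4.37, 4.15 and 4.28 in wild type and 4.75, 3.95 and 4.36 in the knockout. The groups were apart, at intensities that stayed low: array percentiles 44.9 to 57.1 with vehicle and 60.3 to 67.2 with dexamethasone. The rise was 1.01 ± 0.20 (2.02-fold, limma adjusted p = 0.00434) in wild type and 1.29 ± 0.20 (2.45-fold, limma adjusted p = 0.000847) in the knockout.

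Klf9 encodes a Krüppel-like factor that binds GC-rich promoters and is known as a direct receptor target in several tissues. Here it read 8.67, 8.61 and 8.45 in wild-type vehicle, 8.50, 8.48 and 8.42 in wild-type dexamethasone, 8.38, 8.50 and 8.75 in knockout vehicle and 8.87, 8.62 and 8.15 in knockout dexamethasone. All 4 groups overlapped. The difference was -0.11 ± 0.16 (limma adjusted p = 0.756) in wild type and 0.00049 ± 0.16 in the knockout (limma adjusted p = 1.00, 95% interval -0.34 to 0.34). Averaged over genotypes the 95% interval ran from -0.29 to 0.18 on the log2 scale, which bounds any change within it and does not show that there was none.

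Mfsd2a encodes a sodium-dependent transporter of lysophosphatidylcholine, the carrier of docosahexaenoic acid into cells. Its vehicle values were widely spread: 6.84, 7.68 and 5.33 in wild type and 5.22, 3.76 and 6.15 in the knockout. With dexamethasone they closed to 10.06, 10.20 and 10.12 in wild type and 10.07, 9.76 and 9.77 in the knockout. The rise was 3.51 ± 0.55 (11.4-fold, limma adjusted p = 0.00106) in wild type and 4.82 ± 0.55 (28.3-fold, limma adjusted p = 9.34e-05) in the knockout. The 3 vehicle livers with pancreas transcripts, at 6.84, 7.68 and 6.15, were the 3 highest of the 6. Without the 4 pancreas-bearing arrays the wild-type rise was 4.80, from 1 vehicle liver, and the knockout rise 5.38. Single arrays moved it too: without vehicle wild-type replicate 3 the wild-type rise was 2.86, and without vehicle knockout replicate 2 the knockout rise was 4.18. Over all arrays left out in turn it ranged from 2.86 to 4.04 in wild type and from 4.18 to 5.38 in knockout livers.

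Fam107a encodes a small actin-associated protein, known from the brain as a stress-responsive and glucocorticoid-responsive gene. It changed more than the other 8. The vehicle livers read 2.74, 2.91 and 3.43 in wild type and 3.25, 3.32 and 3.39 in the knockout, at array percentiles 40.9 to 54.4. The dexamethasone livers read 9.82, 9.18 and 9.55 in wild type and 8.91, 8.58 and 9.75 in the knockout, at percentiles 94.4 to 97.7. The gene thus moved from the middle of the array to near its top. The rise was 6.49 ± 0.26 (89.8-fold, limma adjusted p = 5.44e-09) in wild type and 5.76 ± 0.26 (54.3-fold, limma adjusted p = 2.12e-08) in the knockout. The vehicle intensities are near the array median, where background adds to the signal. They are not shown to lie above background here, so these folds and the rank of the gene describe intensities, not transcript amounts. The same holds for the low intensities of Cebpd and for Mfsd2a in vehicle knockout replicate 2 (3.76, array percentile 57.5). The knockout rise and the vehicle spread of Mfsd2a rest in part on that value.

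Ranked by increase among 17904 genes in wild type, Fam107a was number 3, Sgk1 14, Mfsd2a 15, Dusp1 20, Zbtb16 31, Tsc22d3 99, Cebpd 228, Errfi1 523 and Klf9 12754. In the knockout the ranks were 6 for Fam107a, 8 for Mfsd2a, 25 for Sgk1, 41 for Tsc22d3, 64 for Zbtb16, 104 for Dusp1, 167 for Cebpd, 541 for Errfi1 and 8501 for Klf9. The order was alike at both ends, and Dusp1 and Tsc22d3 changed places. All 7 genes past the threshold in a genotype stayed past it under every one of the 22 alternatives. Without the 4 pancreas-bearing arrays the wild-type change of Dusp1 was 3.76, of Sgk1 3.83, of Zbtb16 3.07, of Tsc22d3 1.55, of Fam107a 6.07 and of Cebpd 1.25, each against 1 vehicle liver.

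**Figure D2:**
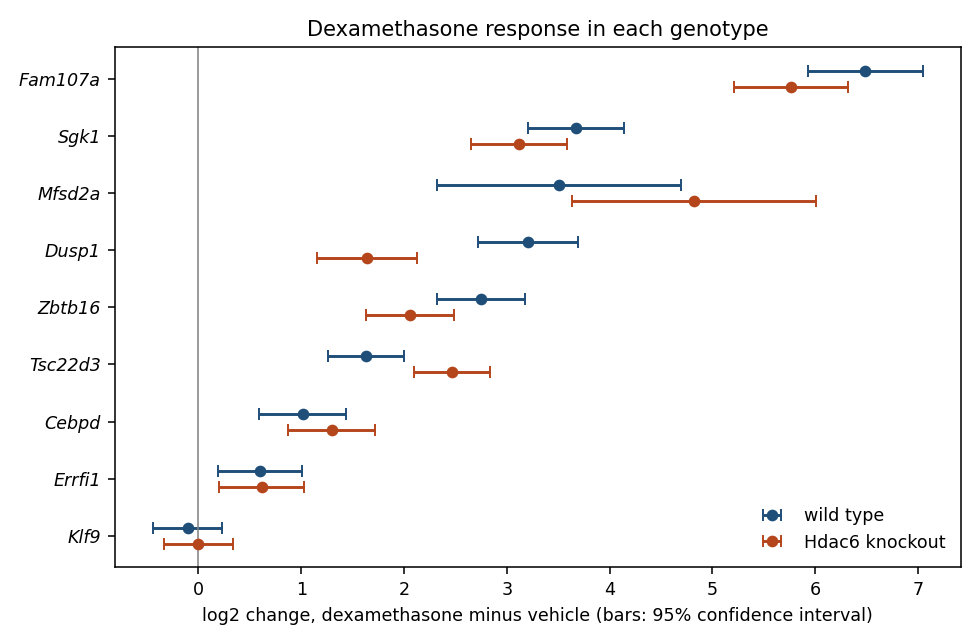
Log2 change with dexamethasone (horizontal axis) for the 9 genes in wild type and in the Hdac6 knockout, with bars for the 95% interval from limma. The intervals of Klf9 include 0 in both genotypes, Fam107a lies farthest right at 6.49 and 5.76, and the largest gap between genotypes is that of Dusp1, 3.21 against 1.64.

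Whether the knockout altered these genes was asked at each treatment and as a difference of responses. Under vehicle none of the 9 passed the threshold, against 18 of 17904 genes, 0.101%. Dusp1 came closest: its level was 1.27 ± 0.23 higher in the knockout (SE, n = 3 per group; 2.41-fold, limma adjusted p = 0.0720). Its unadjusted p was the 20th smallest of all genes. It passed without vehicle wild-type replicate 1 (1.51, limma adjusted p = 0.0159), without dexamethasone wild-type replicate 3 (adjusted p = 0.0497) and with array weights (1.32, limma adjusted p = 0.0484). With replicate number as a block its adjusted p by limma was 0.0414. The difference without the 4 pancreas-bearing arrays was 1.58 (limma adjusted p = 0.157), with wild type represented by vehicle replicate 3 alone (6.37, its lowest value).

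Tsc22d3 differed by -0.60 ± 0.17 (knockout minus wild type) under vehicle (limma adjusted p = 0.437), and Dusp1 and Tsc22d3 were the 2 genes whose vehicle groups did not overlap. Among all genes 5.8% lay wholly higher and 6.04% wholly lower. Zbtb16 differed by 0.54 ± 0.20 (limma adjusted p = 0.596). Mfsd2a differed by -1.58 ± 0.55 (95% interval -2.76 to -0.39, limma adjusted p = 0.574), with overlap between the groups. Without the 4 pancreas-bearing arrays, and so against 1 wild-type liver, its difference was -0.84 (limma adjusted p = 0.931). The other 5 genes differed by -0.19 to 0.29. At an unadjusted p under 0.05 stood 4 of the 9 genes, against 7.19% of all genes.

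Under dexamethasone the genotypes overlapped for all 9 genes, and none passed, against 5 of 17904 genes or 0.0279%. Among all genes, 6.9% lay wholly higher in the knockout there and 7.07% wholly lower. Averaged over treatments, the genotype effect passed for 0 of the 9 and for 0.0503% of all genes. The differences under dexamethasone (knockout minus wild type) ran from -0.49 for Sgk1 (limma adjusted p = 0.550) to 0.23 for Tsc22d3. Dusp1, whose vehicle mean was higher in the knockout without passing the threshold, differed by -0.30 under dexamethasone (limma adjusted p = 0.738). Only Sgk1 had an unadjusted p under 0.05 there, against 8.75% of all genes.

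The test of the difference of responses (knockout minus wild type) passed for 0 of the 9 genes and for 0 of 17904 genes, 0%, by limma. At an unadjusted p under 0.05 there were 1109 genes, 6.19%, and among them Dusp1, Tsc22d3 and Zbtb16. For Dusp1 the difference was -1.57 ± 0.32 (95% interval -2.26 to -0.89, limma adjusted p = 0.319), the 15th smallest p of all genes. For Tsc22d3 it was 0.84 ± 0.24 (0.31 to 1.36, limma adjusted p = 0.620) and for Zbtb16 -0.69 ± 0.28 (-1.30 to -0.080, limma adjusted p = 0.767). Dusp1 and Tsc22d3 thus leaned opposite ways, and none of the 3 passed after adjustment. The intervals of the other 6 included 0 and were widest for Mfsd2a, -0.36 to 3.00, and narrowest for Klf9, -0.37 to 0.58. Without the 4 pancreas-bearing arrays the Dusp1 value was -2.08 (limma adjusted p = 0.338), the Tsc22d3 value 0.84 and the Mfsd2a value 0.58 in place of 1.32, again with 1 wild-type vehicle liver.

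**Figure D3:**
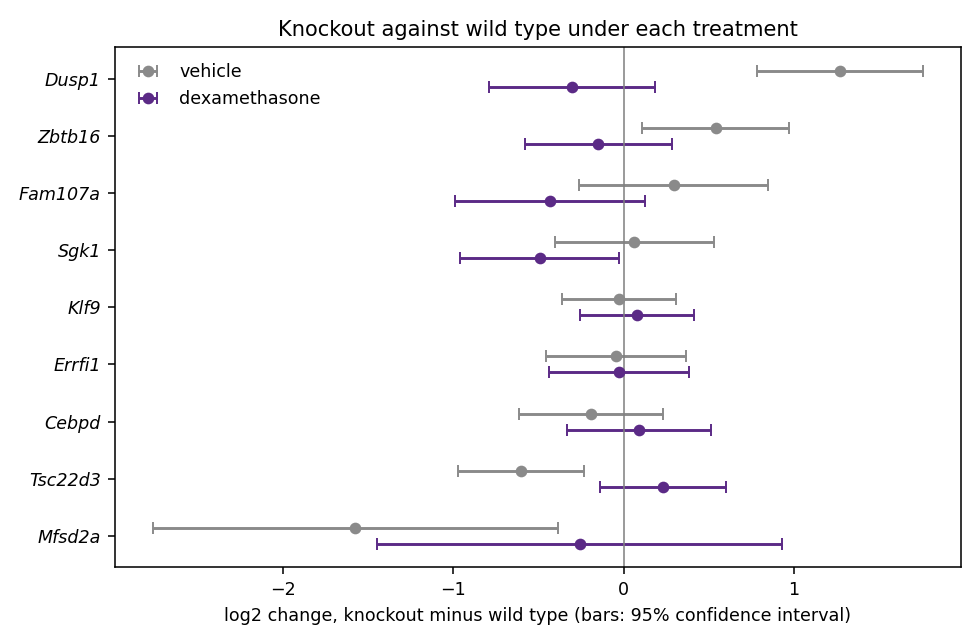
Knockout minus wild type in log2 units (horizontal axis) for the 9 genes under vehicle and under dexamethasone, with 95% intervals from limma. Under vehicle Dusp1 lies to the right at 1.27 and Mfsd2a to the left at -1.58; under dexamethasone all 9 lie between -0.49 and 0.23.

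The spread between animals was also compared between treatments. Of the 9 genes, Mfsd2a and Errfi1 had the largest ratios of vehicle SD to dexamethasone SD and are described for that reason. The pooled within-group SD of Mfsd2a was 1.20 with vehicle and 0.134 with dexamethasone, a ratio of 8.98. A ratio this large or larger was found in 0.0726% of genes, and the median ratio of all genes was 1.01. The vehicle livers with pancreas transcripts held the highest vehicle values of Mfsd2a, and their part in this ratio was not tested. For Errfi1 the SDs were 0.384 and 0.0745, a ratio of 5.15, reached by 0.559% of genes. Sgk1 had the lowest ratio, 0.481, with 0.196 under vehicle and 0.407 under dexamethasone, and 90.3% of genes had a ratio at or above it. Fam107a (0.540), Klf9 (0.598), Zbtb16 (0.926) and Cebpd (0.933) also had the larger SD with dexamethasone. Tsc22d3 (1.57) and Dusp1 (1.41) had the larger SD with vehicle. With 3 animals per group these ratios are descriptions without a test.

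Beside each regulator stood a list of its relatives and partners, read by counts past the threshold in the averaged dexamethasone effect. The background is 7.29% of genes higher and 9.94% lower. Among the 3 other TSC22 genes none passed, with values from -0.20 to 0.19, but without the 4 pancreas-bearing arrays 1 passed as lower, with values from -0.58 to 0.20. Of 13 SGK relatives, activators and substrates, 3 rose and 3 fell. The FOXO factors rose (Foxo1 by 1.20 and Foxo3 by 0.53), as did Nedd4l, a substrate of SGK1 (0.74). The sister kinases Sgk3 (-0.48) and Sgk2 (-0.63) and the sodium channel subunit Scnn1a (-0.41) fell.

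Of 9 other dual-specificity phosphatases, 2 rose and 2 fell. Dusp4 (0.80) and Dusp8 (0.46) were higher, while Dusp10 (-0.94), which acts on JNK and p38, and Dusp6 (-0.78), which acts on ERK, were lower. Among 11 measured MAP kinases and their upstream kinases, 4 rose and 1 fell. The kinases that activate p38, Map2k6 (1.40) and Map2k3 (0.54), rose together with p38 alpha itself, Mapk14 (0.39), and with Map2k4 (0.56). The JNK gene Mapk9 fell by 0.23. Map2k6 was also lower in the knockout under vehicle (-1.43 ± 0.18, limma adjusted p = 0.0078), though it did not pass without the pancreas-bearing arrays, against 1 wild-type liver. Dusp1 differed there in the other direction. For Errfi1, of 11 measured ErbB receptors and ligands, the ErbB4 ligand Nrg4 rose by 2.68 and the receptor Erbb3 fell by 1.44. The EGF receptor, Egfr, differed by 0.40 (limma adjusted p = 0.051).

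Of the 16 other KLF genes, 2 rose (Klf15 by 0.53 and Klf3 by 0.69) and 3 fell (Klf10 by 1.08, Klf11 by 0.35 and Klf6 by 0.34), while Klf9 did not pass. Klf15 is itself known as a glucocorticoid target in liver amino acid metabolism. Of 16 other BTB zinc finger genes, Zbtb20 rose by 0.62, and Zbtb18, Zbtb7b and Zbtb1 fell by 0.56, 0.75 and 0.34. The C/EBP family split: Cebpb, which drives acute-phase and gluconeogenic genes, rose by 1.18, close to the 1.15 of Cebpd. Cebpa, the main C/EBP of the resting hepatocyte, fell by 0.82. Of 18 measured genes of lysophospholipid and choline lipid handling, 1 rose (the desaturase Fads2, 0.33) and 4 fell. Those were the transporters Spns2 (-1.18) and Slc44a1 (-0.68) and the acyltransferases Lpcat3 (-0.55) and Lpcat2 (-0.42). Fam107b, the 1 relative of Fam107a, differed by -0.07 and did not pass.

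Leaving out the pancreas-bearing arrays left 1695 of all genes past the threshold in place of 3085, and list counts fell with it. Of the SGK list 2 then rose and 1 fell, of the phosphatases 1 and 2, and of the MAP kinase list 3 and 0. Of the KLF genes 1 rose and 1 fell, and of the BTB zinc finger genes 1 and 2. The ErbB and C/EBP lists had counts of 1 and 1 each, and of the lipid list 0 rose and 3 fell.

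**Figure D4:**
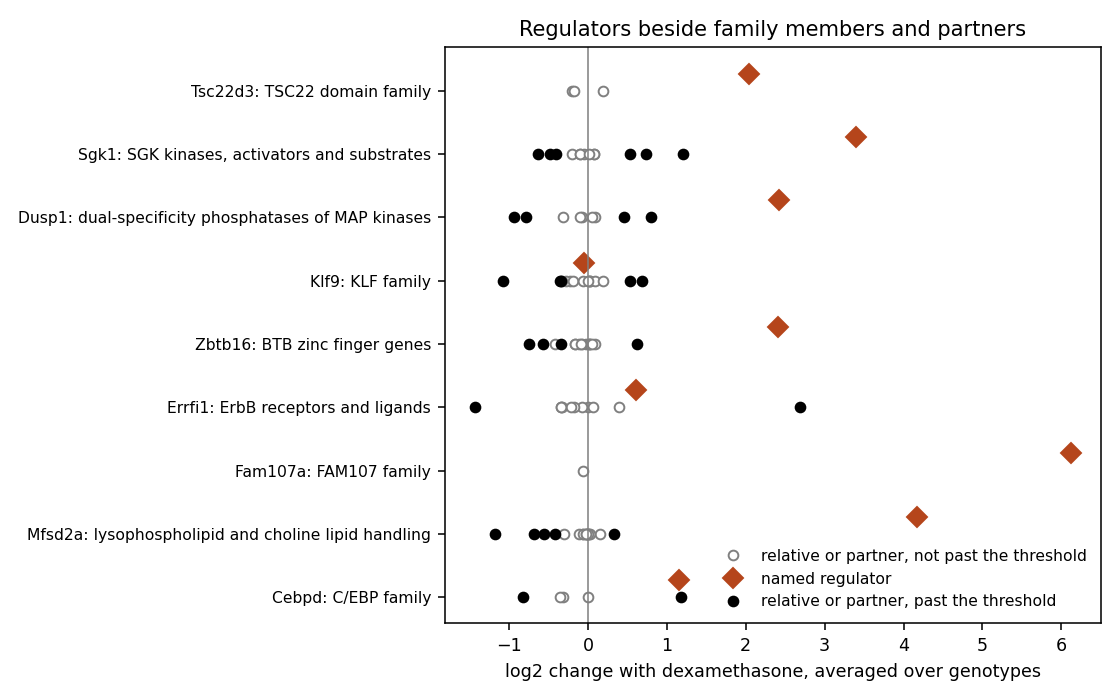
Log2 change with dexamethasone averaged over genotypes (horizontal axis), 1 row per regulator (diamond, drawn just above its row) with its family members and partners (circles, filled where the adjusted p passed 0.05). The diamonds of Tsc22d3, Sgk1, Dusp1, Zbtb16, Fam107a and Mfsd2a lie to the right of every circle in their rows; in the ErbB row Nrg4 at 2.68 lies beyond Errfi1 at 0.61, and Cebpb at 1.18 lies beside Cebpd at 1.15.

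Upstream, of 15 measured genes of the receptor, its chaperones and the steroid enzymes, Ep300, a coactivator, rose by 0.67. The mineralocorticoid receptor Nr3c2 fell by 1.65 and the receptor chaperone Fkbp4 by 0.39. Without the pancreas-bearing arrays 1 rose and 1 fell. The glucocorticoid receptor Nr3c1 differed by -0.27 ± 0.10 (limma adjusted p = 0.099). Among 27 further measured genes with textbook glucocorticoid induction, 22 rose and 1, the transglutaminase Tgm2 (-0.46), fell. Of all genes tested, 7.29% rose and 9.94% fell. The 27 were listed as known targets, with earlier results of these data known, so their share is no independent support. Their median change was 1.47. The 4 with the smallest p were the metallothionein Mt2 (6.33), the siderophore-binding protein Lcn2 (6.36), the estrogen sulfotransferase Sult1e1 (6.52) and the stress gene Gadd45b (5.83). Their changes were of the size of that of Fam107a. By genotype 21 rose and 1 fell in wild type, against 4.57% and 6.95% of all genes. In the knockout 21 rose and 0 fell, against 4.38% and 3.92%. With those arrays left out the counts were 20 and 1 averaged over genotypes and, against 1 vehicle liver, 13 and 0 in wild type. The wild-type median was then 1.03, from 1.13 with all arrays.

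Likeness was measured as the root mean square difference over the 12 livers between 2 genes' log2 levels, each centred on its own mean, so a smaller value means a more similar course. Nearest to Fam107a stood Sult1e1 (0.496), Gadd45b (0.502) and Lcn2 (0.534). Nearest to Sgk1 stood Plin5 (0.309), a lipid droplet protein, Serpina5 (0.324) and Pnmt (0.350). Zbtb16 stood nearest to Trp53inp1 (0.302), Cfap54 (0.307) and the lipid droplet gene Plin4 (0.320), and Dusp1 stood nearest to Zbtb16 (0.325), then Cfap54 (0.484) and the mitochondrial carrier Slc25a25 (0.532). Dusp1 and Zbtb16 share a higher mean in the knockout under vehicle and a smaller rise there, the former without and the latter with overlap of the vehicle groups. For neither gene did the vehicle difference or the difference of responses pass the threshold in the main fit. For Tsc22d3 the nearest were the survival gene Bcl2l1 (0.254), the adhesion molecule Vcam1 (0.263) and Usp18 (0.269).

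Mfsd2a had the least close neighbours: the clock gene Ciart (0.796), the metallothionein Mt1 (0.833) and the phosphatidate phosphatase Lpin1 (0.841). The measure grows with a gene's own spread between animals, and the pooled vehicle SD of Mfsd2a was 1.20. For Cebpd the nearest genes were Ifrd1 (0.202), Dclre1b (0.217) and Retreg1 (0.223), and for Errfi1 Srfbp1 (0.177), Pdcd11 (0.179) and Ston1 (0.182). For Klf9 they were Dhrs1 (0.0789), Enox2 (0.102) and Epm2a (0.104). The pooled SD of Klf9 was 0.157 with vehicle and 0.262 with dexamethasone, against medians of 0.138 and 0.136 over all genes.

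Markers of other liver cells were also measured. Of 13 Kupffer cell markers, 10 were lower and 1 higher with dexamethasone in wild type, and 0 were lower and 1 higher in the knockout. Among all genes, 6.95% were lower and 4.57% higher in wild type, and 3.92% and 4.38% in the knockout. None of the 13 passed the test of the difference of responses. Without the 4 pancreas-bearing arrays, against 1 vehicle liver, 0 of 13 passed in wild type, while the median change of the list was -0.74 there and -0.95 with all arrays. Their summed level was 10.6 to 11.3 and 9.76 to 10.2 without and with dexamethasone in wild type, and 10.5 to 10.9 and 10.4 to 11.2 in the knockout. Of 12 liver endothelial markers 6 were lower and 1 higher in wild type, and 4 were lower and 1 higher in the knockout. The part of these cells in the changes of the 9 regulators was not tested.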

How the data were processed

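Total RNA (Qiagen RNEasy) of snap-frozen liver was hybridised to Affymetrix whole-transcript arrays, 1 per animal. The deposited values are log2 intensities that the authors made in R 2.10.0 with affy, per the submitters' processing notes. Background correction, normalisation and summarisation are not given in the sources used here.

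Genes came from probe sets with 1 symbol (21640 of 34760 probe sets), the one with the highest mean standing for a gene. Genes above the 20th percentile of an array in at least 3 arrays were kept, 17904 of 19937. A single model with 4 group means covered the 12 arrays (limma 3.58.1, R 4.3.3), and p-values were adjusted by Benjamini-Hochberg over these genes, with 7 comparisons and a threshold of 0.05. Errors of changes are SE. The fit was tested on simulated data. The number of arrays limits the precision. Replicate numbers were not used to pair animals in the main fit. Deviations of same-numbered arrays correlated from -0.54 to 0.36. Arrays of different numbers were not set beside them, so this range cannot show whether the numbers mark a batch.

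The members, gene lists and tests were chosen with earlier results of these data known. Besides the 9 genes, the text names Hdac6, up to 4 genes per list with the smallest p in the averaged dexamethasone effect, and 3 neighbours per member by root mean square difference. Other list genes named (Tgm2, Sgk2, Scnn1a, Mapk9, Klf11, Lpcat2, Dbp and Per3) were chosen after their values were seen. The planned comparison of protein sequences was not run.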

Additional observations from a re-analysis of the deposited data

How the results depend on the processing

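The 22 alternatives were leaving out each array, other filters and scalings, array weights, a trended and robust fit, fits of only the groups compared, a replicate block and, chosen after seeing the data, leaving out the 4 pancreas-bearing arrays. No dexamethasone call of a member was lost under them. Each member had 1 probe set, so no other probe set could be tried. Centring arrays on their median turned the wild-type split of 819 higher and 1245 lower into 657 and 1551. With the replicate block, counts of genes past the threshold were 3 for knockout against wild type under dexamethasone (5 without it) and 29 for the averaged genotype effect (9 without it), and 1 member, Dusp1 (1.27), passed under vehicle; it ended no member's call. Other counts for the averaged genotype effect were 22 with array weights, 14 with a trended and robust fit and 3 without the pancreas-bearing arrays. With array weights 1 member passed under vehicle. Knockout against wild type under dexamethasone gave 3 genes with no filter, 3 with only the groups compared and 1 without the pancreas-bearing arrays; under vehicle the count of 18 became 9 and 5 in the latter fits. Without the pancreas-bearing arrays, a fit that keeps 1 wild-type vehicle array and takes the spread from the other groups, dexamethasone in wild type gave 559 genes in place of 2064, the averaged effect 1695 in place of 3085 and the interaction 1 in place of 0. Leaving out 1 array gave 1417 to 2165 genes and 7 to 8 members for dexamethasone in wild type, 993 to 1603 and 7 to 8 in the knockout, 2628 to 3019 and 8 to 8 averaged. For knockout against wild type it gave 5 to 28 genes and 0 to 1 members under vehicle, 1 to 37 and 0 to 0 under dexamethasone, and 5 to 29 genes averaged; for the interaction 0 to 3 genes and 0 members. The fits with fewer arrays have fewer degrees of freedom, and the cause of these shifts was not tested.

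Signs turned only for differences that were not past the threshold. Klf9 in the knockout was -0.012 after quantile normalisation, Errfi1 under dexamethasone 0.014 (knockout minus wild type) with median centring, and the Errfi1 interaction -0.012 with array weights. Without the pancreas-bearing arrays Klf9 was 0.047 in wild type and 0.076 averaged, the Errfi1 interaction was -0.18, and knockout minus wild type under vehicle was 0.13 for Errfi1, -0.15 for Fam107a and 0.021 for Cebpd. Leaving out 1 array, knockout minus wild type under vehicle ranged from -0.080 to 0.19 for Sgk1, -0.13 to 0.053 for Klf9, -0.21 to 0.21 for Errfi1 and -0.31 to 0.023 for Cebpd. Under dexamethasone it ranged from -0.087 to 0.28 for Klf9, -0.29 to 0.076 for Zbtb16, -0.064 to 0.021 for Errfi1 and -0.11 to 0.29 for Cebpd. The interaction ranged from -0.058 to 0.31 for Klf9 and -0.24 to 0.19 for Errfi1, and the Klf9 response from -0.16 to 0.20 in the knockout and -0.13 to 0.047 averaged.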

Other observations

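These counts are for dexamethasone averaged over genotypes unless another comparison is named, where 7.29% of all genes rose and 9.94% fell. Of 21 immediate-early genes, which growth and stress signals switch on within minutes, 1 rose and 3 fell, close to those shares. Btg2, an antiproliferative gene, rose by 1.28, and Egr1, Junb and Btg1 fell by 1.14, 0.46 and 0.51. Without the 4 pancreas-bearing arrays the split was 3 higher and 0 lower, so the list has no settled direction. Of 17 measured circadian clock genes, 3 rose and 5 fell, and without those arrays 3 and 4. Ciart rose by 3.55, Nfil3 by 1.95 and Per1 by 1.62, while Nr1d1, the repressor REV-ERB alpha, fell by 3.15. Under vehicle, 3 clock genes were lower in the knockout and 0 higher, against 0.101% of all genes in either direction: Per1 by -1.52, Dbp by -1.39 and Per3 by -1.20. Without those arrays, and so against 1 wild-type liver, 1 was lower. The labels used here give no hour of collection.

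Among cell type markers, 1 of 8 measured hepatocyte markers rose and 0 fell, with and without the pancreas-bearing arrays. Of 12 liver endothelial markers 1 rose, Lyve1 by 2.21, and 6 fell; without those arrays 1 rose and 3 fell. Of 10 stellate cell and fibroblast markers 1 rose and 2 fell, and without the arrays 1 and 1. Of 9 measured lymphocyte markers 0 rose and 5 fell, and without the arrays 0 and 2. Of 13 Kupffer cell markers 1 rose, Cd163 by 1.28, and 6 fell, and without the arrays 1 and 1. None of the 12 measured exocrine pancreas markers passed in either fit.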
